A study of Chlorocebus aethiops with 36 samples.

Results

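Immediate early and stress-induced genes are transcribed within minutes of a stimulus. The 10 genes described here were FOS, FOSB, JUN, JUNB, EGR1, ATF3, IER2, IER3, DUSP1 and GADD45B. Every probe set of the array was taken whose platform annotation named only 1 of these symbols. This gave 22 probe sets for 10 of the 19775 genes that had a probe set of their own, and no member lacked one. FOS, FOSB, JUNB, IER2 and IER3 had 1 probe set each, EGR1, ATF3 and DUSP1 had 3, and JUN and GADD45B had 4. The probe set with a gene's highest mean signal is called its main probe set.

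The samples were liver biopsies of 12 male African green monkeys (Chlorocebus aethiops), taken from each animal at week -5, week 4 and week 12, which gave 36 arrays. Anti-miRs are short antisense molecules that occupy a microRNA and stop it from acting, and miR-33 lies in introns of the SREBF genes, which govern lipid synthesis. After an untreated baseline on normal chow at week -5, 6 animals received anti-miR-33 and 6 received a control anti-miR, both at 5 mg/kg under the skin. All animals ate normal chow until week 4 and a high carbohydrate, moderate cholesterol diet from then to week 12. Duration of dosing and order of biopsy therefore changed together in every interval, and diet changed with them only after week 4. The parts of these factors in a change over an interval in which they changed together cannot be told apart. The labels do not number the baseline arrays by arm, so the arm of a baseline array came from that animal's later labels. The week 4 array of control animal 1 is labelled with the high carbohydrate diet, against the other week 4 arrays and the study's own account. The array identifiers of the labels run on from week -5 to week 12, while those of week 4 form a separate run, so week 4 and that run cannot be told apart. RNA was hybridised to a human array (HG-U133 Plus 2.0), whose probes may pair less well with monkey RNA. Each probe set is therefore set only against itself in other groups.

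FOS, FOSB, JUN and JUNB encode the basic leucine zipper proteins that pair to form the transcription factor AP-1. Their transcripts are induced through mitogen-activated and stress-activated kinases without new protein synthesis, and they decay quickly. EGR1 is a zinc finger factor induced through the same kinases, and ATF3 is a stress-induced factor of the ATF/CREB family. DUSP1 is a phosphatase that switches those kinases off, and IER3 and GADD45B modulate survival and stress signalling. In liver, such genes are known to respond to feeding and hormones, to partial resection and to ischaemia, and also to the handling of tissue before it is frozen. The labels record no time between biopsy and preservation, so the part of biopsy handling in the values was not tested.

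The tissue and the arrays were checked before the members were read. The mean log2 signal of 18 hepatocyte markers lay between 12.4 and 13.2 on every array. RNA integrity was read from GAPDH and ACTB control probe sets, as their 3′ minus 5′ value (mean of both genes). A lower value means a smaller excess of 3′ over 5′ signal, and not a lower integrity. The value was 2.57 ± 0.43 at week -5, then 1.94 ± 0.41 at week 4, and 1.83 ± 0.16 at week 12 (SD, n = 12). It was lower at week 12 than at week -5 in 11 of 12 animals (exact permutation p = 9.77e-04, two-sided). Between weeks 4 and 12 it was lower in 8 of 12 (exact permutation p = 0.333). At week 4, however, the value of GAPDH (1.36 to 2.80) was above that of ACTB (0.82 to 2.17) on every array. At week 12 the ranges were alike, at 1.60 to 2.09 for GAPDH and 1.48 to 2.15 for ACTB. The mean of both genes can therefore hide opposite changes between weeks 4 and 12, also where it serves as a covariate. The mean of 14 endothelial markers was 6.32 to 6.93 on the arrays of week -5 and 5.92 to 6.35 on those of week 12, and 11 of the 14 fell from week -5 to each later week. Because whole biopsies were measured, fewer cells of a type and less RNA per cell cannot be told apart.

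The members differed between animals far more than most probe sets. Of the 20 member probe sets that passed a filter on low signal (2 of JUN did not), 13 were among the 5% of highest standard deviation within groups of the same arm and week. The median standard deviation of all 27302 tested probe sets was 0.18 on the log2 scale. FOS had 1.12, which put it above 99.97% of tested probe sets, and the EGR1 probe sets had 0.74 to 0.91. The main probe sets of DUSP1, JUNB, GADD45B, JUN and IER3 had 0.65, 0.56, 0.55, 0.50 and 0.37. By contrast, FOSB had 0.20, ATF3 0.14 and 0.13 by 2 of its probe sets, and the GADD45B probe set 213560_at only 0.11. The remaining ATF3 probe set, 202672_s_at, had 0.52.

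**Figure D1:**
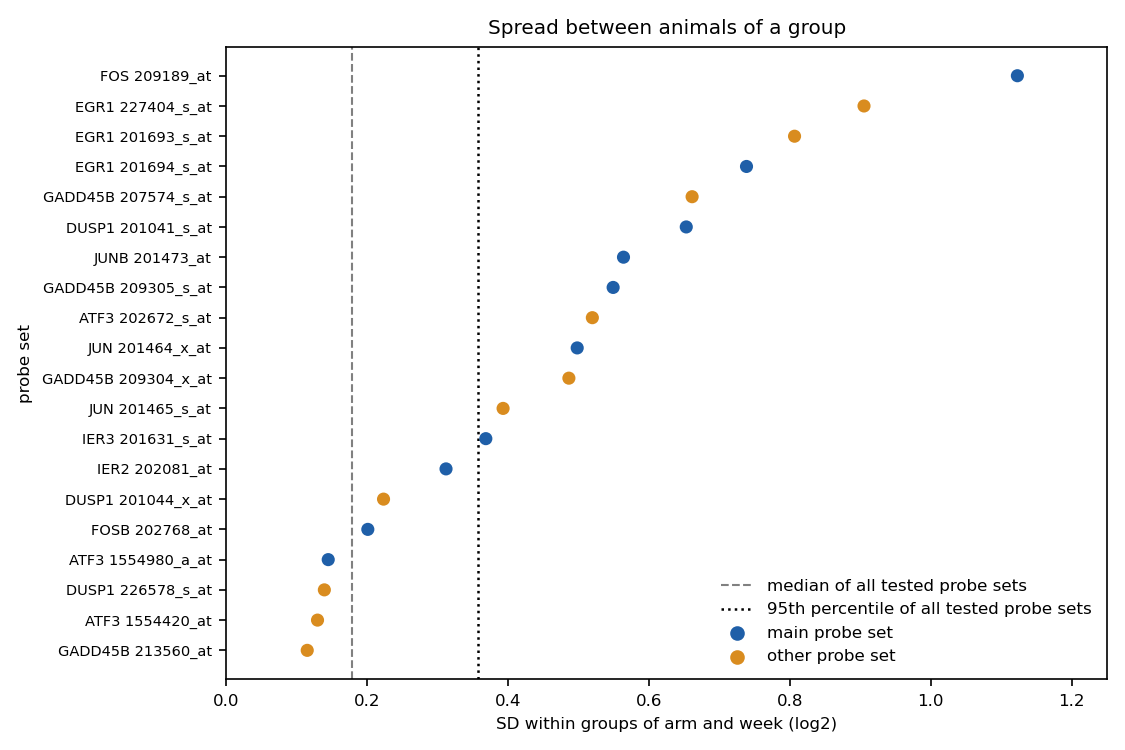
Standard deviation within groups of arm and week (x axis, log2 units) for each of the 20 tested member probe sets (y axis), with the median (0.18, dashed) and the 95th percentile (0.36, dotted) of all tested probe sets. FOS, EGR1 and the main probe sets of DUSP1, JUNB, GADD45B, JUN and IER3 lie to the right of the dotted line. So do ATF3 202672_s_at, JUN 201465_s_at, and GADD45B 209304_x_at and 207574_s_at. FOSB, IER2 and 5 other probe sets, of ATF3, DUSP1 and GADD45B, lie to its left.

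In a few biopsies several members were high at once. FOS at week 12 was 8.78 and 8.88 in control animals 2 and 6, and 4.98 to 6.27 in the other control animals. Those same arrays were among the highest 2 of their group for 9 and 8 of the 10 genes. Such counts include FOS, by which the arrays are named here. The share of all tested probe sets for which an array was in the highest 2 was not counted. At week -5, before any treatment, FOS was 8.48 and 7.00 in the animals later given anti-miR-33 as animals 1 and 6, against 4.38 to 5.80 in the rest of that arm. Their arrays were in the highest 2 for 6 and 8 of the 10 genes. At week 4 anti-miR-33 animal 4 had a FOS signal of 6.73, against 4.89 to 5.41 in its group, and was in the highest 2 for 9 of 10 genes. That animal was again in the highest 2 for 9 of 10 genes at week 12, with a FOS signal of 7.04, after the lowest FOS signal of its arm at week -5 (4.38). For control animal 2, FOS was 5.35, 5.58 and 8.78 at weeks -5, 4 and 12, and for anti-miR-33 animal 1 it was 8.48, 4.89 and 6.31.

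**Figure D2:**
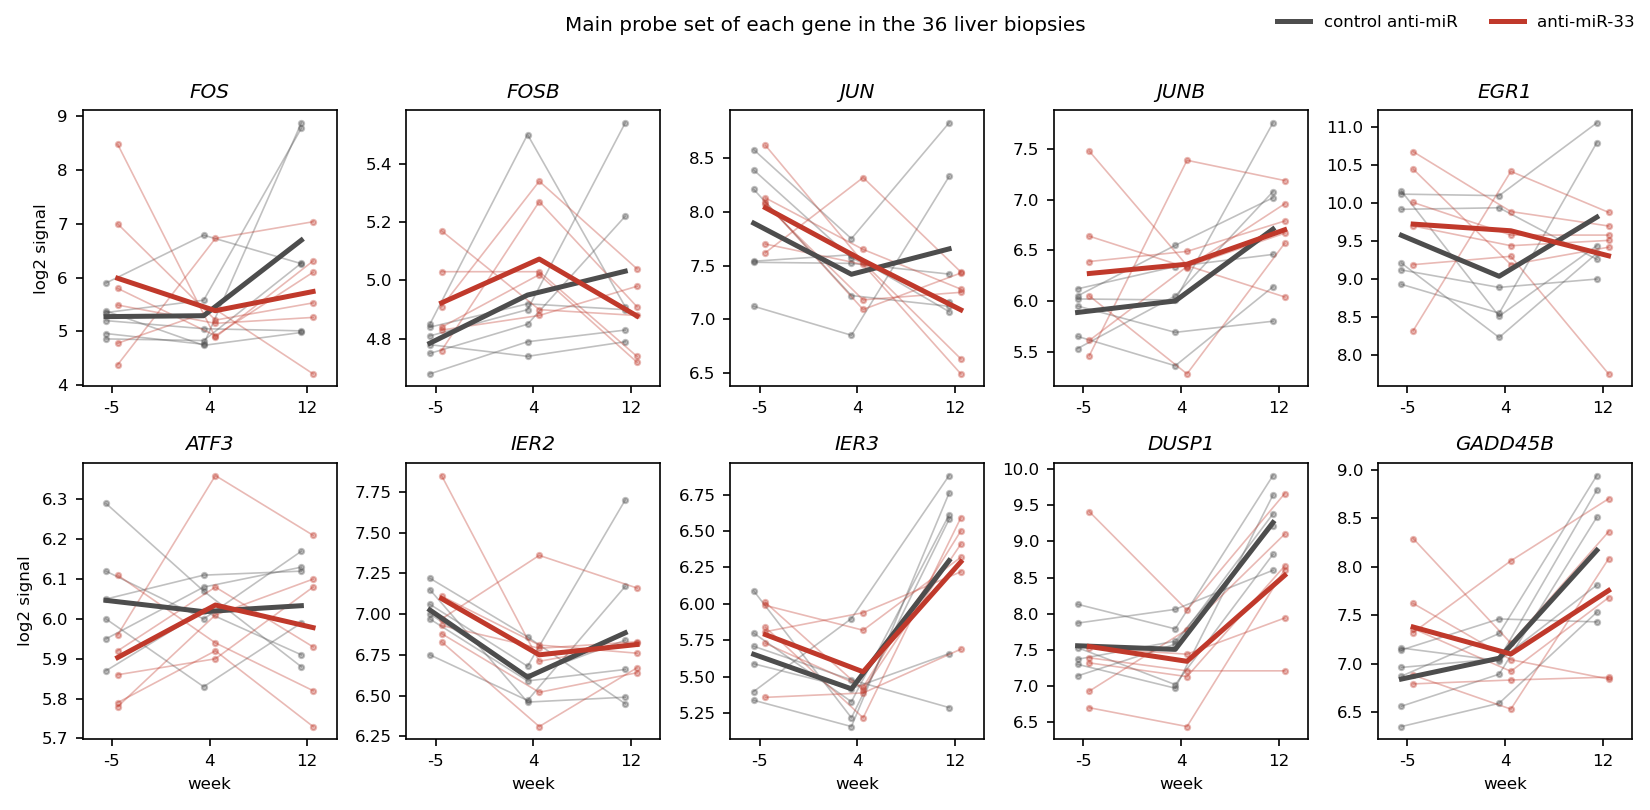
Log2 signal of the main probe set (y axis) of each gene at weeks -5, 4 and 12 (x axis), with a thin line for each animal and a thick line for the mean of each arm (n = 6, grey control, red anti-miR-33). DUSP1, GADD45B and IER3 are higher at week 12 in nearly all animals, whereas FOS is high in a few biopsies of each week.

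Over time, averaged over both arms, DUSP1, IER3, GADD45B and JUNB were higher at week 12 than at week 4, and the AP-1 subunit JUN and the early gene IER2 were lower at week 4 than at baseline. FOS, FOSB, EGR1 and ATF3 passed the test in no interval. From week -5 to week 4, 5 of the 20 tested member probe sets passed at an adjusted p under 0.05, 2 higher and 3 lower (limma, Benjamini-Hochberg over all tested probe sets), where 35.4% of all tested probe sets passed, 16.5% higher and 18.9% lower. Between weeks -5 and 12, 9 passed, 7 higher and 2 lower, against 24.1% of all, 10.2% higher and 13.9% lower. From week 4 to week 12, 6 passed, all higher, against 25.5% of all and 12.3% higher. The median change of the members was -0.07, 0.11 and 0.14 in these intervals, and that of all tested probe sets lay between -0.0042 and 0.0017. Single animals moved the medians of the members. The first ran from -0.22 without anti-miR-33 animal 4 to 0.02 without animal 1 of that arm, and was -0.11 and -0.04 without its animals 3 and 6. The second was 0.06 without anti-miR-33 animal 4 or control animal 6, and 0.07 without control animal 2. The third ran from 0.09 without control animal 2 or 6 to 0.22 without control animal 3. The intervals share arrays, so their values are given side by side and not as independent results. Within control animals 1, 5 and 5 member probe sets passed in these intervals, against 17.4%, 7.55% and 7.40% of all, and within anti-miR-33 animals 2, 3 and 2, against 18.5%, 14.1% and 11.1%. A call in one arm alone does not show that the arms differ. With the 3′ minus 5′ value as a covariate, 2, 3 and 5 member probe sets passed, beside 23.9%, 4.34% and 25.5% of all.

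**Figure D3:**
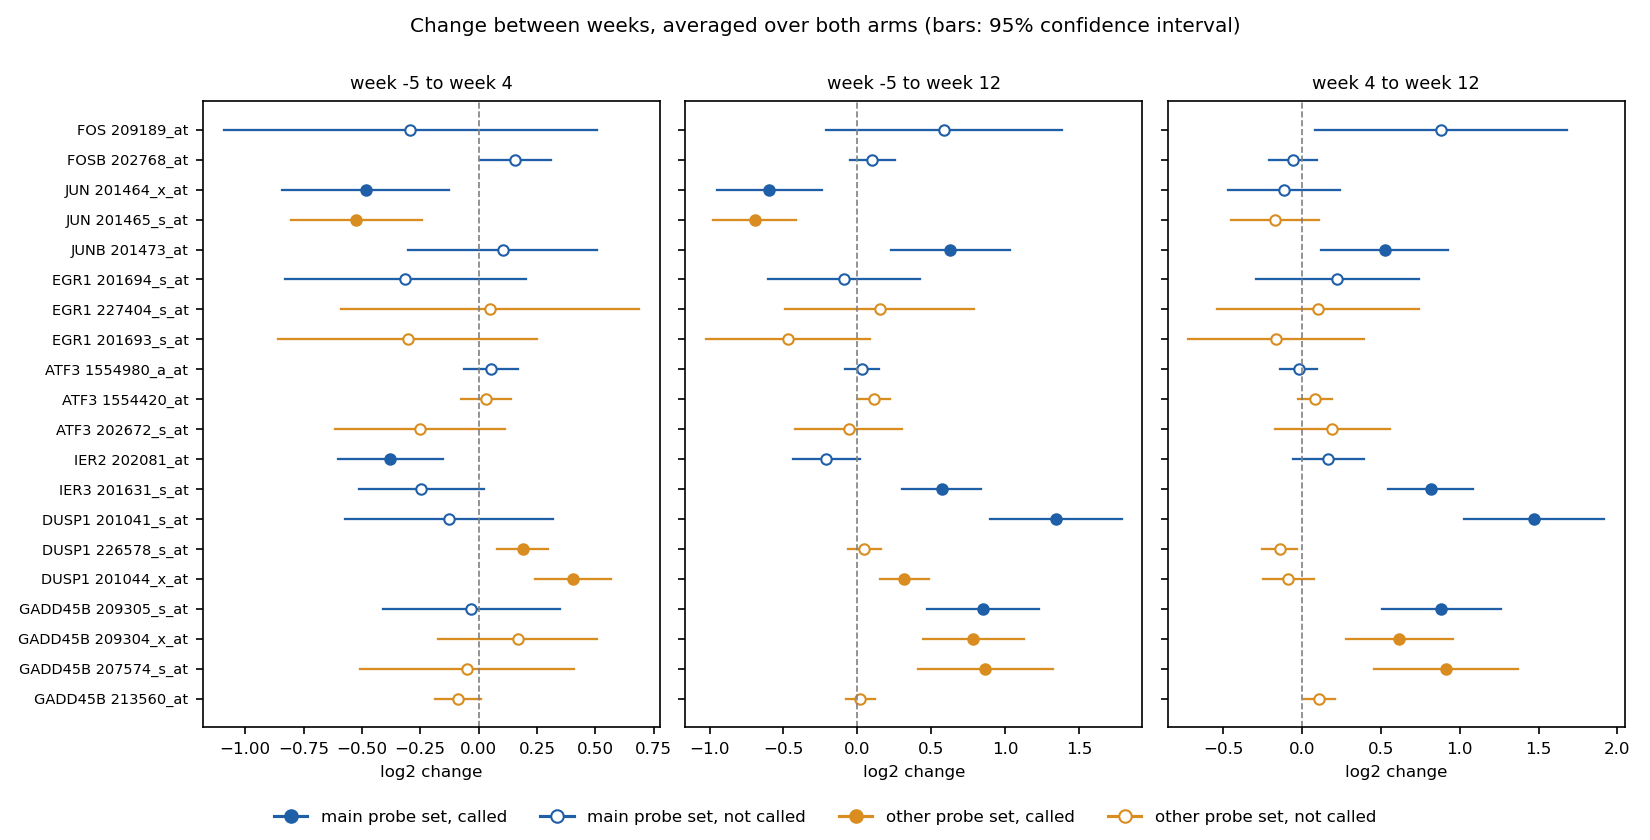
Log2 change between weeks averaged over both arms (x axis, point, with its 95% confidence interval) for each tested member probe set (y axis), in 3 panels for the 3 intervals, filled where the adjusted p was under 0.05. In the right panel the main probe sets of DUSP1 (1.47), GADD45B (0.88) and IER3 (0.82) are filled on the higher side, while the other DUSP1 probe sets lie just below 0.

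Among the AP-1 subunits, FOS had the widest spread and passed in no interval. FOS (probe set 209189_at) had a lowest, median and highest signal of 4.38, 5.37 and 8.48 at week -5, of 4.74, 5.10 and 6.79 at week 4, and of 4.21, 6.18 and 8.88 at week 12 (n = 12 each). The ranges overlapped entirely, and the highest biopsy of each week exceeded the median of every other week. FOS differed by 0.88 ± 0.39 (SE) from week 4 to week 12, higher in 9 of 12 animals, with an adjusted p of 0.0948 (limma). Without control animal 6 this difference was 0.61. Between weeks -5 and 4 it was -0.29 ± 0.39 and 0.0053 without anti-miR-33 animal 1.

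FOSB (202768_at), a relative of FOS, had a median of 4.84, 4.91 and 4.91 at the 3 weeks and a highest signal of 5.54. Its difference from week -5 to week 4 was 0.16 ± 0.08, higher in 9 of 12 animals, with an adjusted p of 0.102 (limma). Without anti-miR-33 animal 1 it was 0.20, with an adjusted p of 0.0481.

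JUN, a main partner of FOS in AP-1, was lower than baseline at both later weeks. Its main probe set (201464_x_at) had a lowest, median and highest signal of 7.12, 8.08 and 8.62 at week -5, of 6.85, 7.53 and 8.32 at week 4, and of 6.49, 7.27 and 8.83 at week 12. Ranges of the weeks overlapped, and the highest value of week 12 belonged to control animal 2. JUN fell by 0.48 ± 0.18 (SE) from week -5 to week 4, lower in 10 of 12 animals (adjusted p = 0.0297, limma). It fell by 0.60 ± 0.18 from week -5 to week 12, also lower in 10 of 12 (adjusted p = 0.0108). By arm, the median change to week 12 was -0.29 in control animals, of which 4 of 6 fell. Under anti-miR-33 it was -0.835, and 6 of 6 fell. The difference between arms in this change did not pass. The probe set 201465_s_at changed by -0.52 ± 0.14 and -0.69 ± 0.14 in these intervals, lower in 11 of 12 animals in both (adjusted p = 0.00335 and 2.75e-04). The probe sets 201466_s_at and 213281_at, below the filter, changed by -0.51 and -0.27 from week -5 to week 4 in a fit without the filter (adjusted p = 0.00468 and 0.0209). From week -5 to week 12 they differed by -0.35 and -0.19 and did not pass (adjusted p = 0.0882 and 0.162).

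The calls of the main JUN probe set depended on single animals, while 201465_s_at passed in 12 of 12 fits that left out 1 animal in both intervals. When control animal 1 or 5 was left out, or animal 1, 2, 5 or 6 of the anti-miR-33 arm, the main probe set differed by -0.49 to -0.42 from week -5 to week 4, with adjusted p of 0.0514 to 0.0757. From week -5 to week 12 it differed by -0.49 without anti-miR-33 animal 6 (adjusted p = 0.0507). With the 3′ minus 5′ value as a covariate neither probe set was called, at -0.38 ± 0.23 and -0.47 ± 0.25 for the main probe set (adjusted p = 0.24 and 0.319) and -0.38 and -0.53 for 201465_s_at (adjusted p = 0.119 and 0.118). The endothelial markers fell over the same intervals, and their part in the JUN values was not tested.

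JUNB (201473_at), an AP-1 subunit that often opposes JUN, was higher at week 12. Its lowest, median and highest signals were 5.46, 6.04 and 7.48 at week -5, 5.28, 6.34 and 7.39 at week 4, and 5.80, 6.73 and 7.76 at week 12. All weeks overlapped. JUNB was higher by 0.63 ± 0.20 at week 12 than at week -5, in 10 of 12 animals (adjusted p = 0.0179, limma), and by 0.53 ± 0.20 than at week 4, in 10 of 12 (adjusted p = 0.0481). The first call did not survive the removal of control animal 2 (0.54), of control animal 6 (0.55), or of animal 2 (0.56) or 4 (0.50) of the anti-miR-33 arm, with adjusted p of 0.0529 to 0.0556. The second held without only 4 of the 12 animals in turn. When control animal 2, 3, 5 or 6 was left out, or animal 1, 2, 3 or 5 of the anti-miR-33 arm, it was 0.42 to 0.55, with adjusted p of 0.0622 to 0.133. Under the 3′ minus 5′ covariate the differences were 0.61 and 0.52 (adjusted p = 0.239 and 0.0548).

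EGR1, a zinc finger factor, was measured by 3 probe sets, none of which passed in any interval. The main probe set (201694_s_at) had a median of 9.81, 9.37 and 9.48 at weeks -5, 4 and 12, with a lowest signal of 7.75 and a highest of 11.06, both at week 12. Its differences were -0.31 ± 0.25 from week -5 to week 4, -0.09 ± 0.25 from week -5 to week 12 and 0.23 ± 0.25 from week 4 to week 12, with adjusted p of 0.35, 0.849 and 0.545 (limma). The 95% confidence interval of the last ran from -0.29 to 0.74. The probe sets 227404_s_at and 201693_s_at differed by 0.10 and -0.16 in that interval, neither past the test.

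ATF3 passed in no interval, and its probe sets did not measure a common pattern. The main probe set (1554980_a_at) and 1554420_at had signals within 5.16 and 6.36 on all arrays, with differences of at most 0.12 between weeks. The probe set 202672_s_at, with a lowest, median and highest of 4.32, 4.94 and 6.87 at week 12, was high in control animal 2, the animal with the highest EGR1 of that week. It was also high at week 4 in anti-miR-33 animal 4, at 6.18. Its differences of -0.25 ± 0.18 from week -5 to week 4 and 0.19 ± 0.18 from week 4 to week 12 did not pass (adjusted p = 0.283 and 0.449, limma).

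IER2 (202081_at), an early gene of unsettled function in transcription, was lower at week 4. Its lowest, median and highest signals were 6.75, 6.99 and 7.85 at week -5, 6.31, 6.65 and 7.36 at week 4, and 6.45, 6.79 and 7.70 at week 12. Ranges of the weeks overlapped, and anti-miR-33 animal 4 was the only animal with a higher IER2 at week 4 than at week -5. IER2 fell by 0.38 ± 0.11 (SE) from week -5 to week 4, in 11 of 12 animals (adjusted p = 0.00783, limma). With the 3′ minus 5′ covariate it differed by -0.32 ± 0.15 (adjusted p = 0.106). From week 4 to week 12 it differed by 0.17 ± 0.11 (adjusted p = 0.277).

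IER3 (201631_s_at), which modulates survival signalling, was among the members that rose after week 4. Its lowest, median and highest signals were 5.34, 5.77 and 6.09 at week -5, 5.16, 5.42 and 5.94 at week 4, and 5.29, 6.46 and 6.88 at week 12. At week 12 the signal was above the highest of week 4 in all animals but control animals 3 and 4 and anti-miR-33 animal 2. IER3 rose by 0.82 ± 0.13 (SE), or 1.76-fold, from week 4 to week 12, in 11 of 12 animals (adjusted p = 3.16e-05, limma), and by 0.57 ± 0.13 from week -5, in 11 of 12 (adjusted p = 0.00129). The 3′ minus 5′ covariate left rises of 0.85 and 0.81. The rise from week 4 was 0.88 ± 0.19 in control animals and 0.75 ± 0.19 in anti-miR-33 animals.

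DUSP1, the phosphatase that inactivates the kinases upstream of the other members, had the largest rise among the members. Its main probe set (201041_s_at) had lowest, median and highest signals of 6.70, 7.38 and 9.41 at week -5, 6.44, 7.51 and 8.06 at week 4, and 7.21, 8.96 and 9.91 at week 12. In control animals the lowest signal of week 12 (8.60) was above the highest of week -5 (8.13) and of week 4 (8.06). Week 12 thus did not overlap the earlier weeks in that arm. The share of all tested probe sets without such overlap was not counted. In the other arm week 12 did overlap them, since anti-miR-33 animal 1 had 9.41 at week -5 and animal 6 had 7.21 at both later weeks. DUSP1 rose by 1.47 ± 0.22 (SE), or 2.77-fold, from week 4 to week 12, higher in 11 of 12 animals and equal in 1 (adjusted p = 1.08e-05, limma). Relative to week -5 it rose by 1.34 ± 0.22, in 11 of 12 (adjusted p = 1.98e-05). Under the 3′ minus 5′ covariate the rises were 1.43 and 1.04 (adjusted p = 1.57e-05 and 0.0396).

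The other DUSP1 probe sets followed the main one in part. Relative to week -5, 201044_x_at was higher at week 12 by 0.32 ± 0.08, in 11 of 12 animals (adjusted p = 0.00303, limma), and stayed called when any 1 animal was left out, while 226578_s_at differed by 0.05 ± 0.05. Under the 3′ minus 5′ covariate 201044_x_at differed by 0.16 (adjusted p = 0.483). From week 4 to week 12, 226578_s_at differed by -0.14 ± 0.05, lower in 10 of 12 animals, and 201044_x_at by -0.09 ± 0.08, lower in 6 of 12 (adjusted p = 0.0513 and 0.455, limma). The value of 226578_s_at was past the threshold when control animal 2, control animal 4 or anti-miR-33 animal 3 was left out, at -0.15, -0.17 and -0.16 (adjusted p = 0.0369, 0.0283 and 0.0418). Between weeks -5 and 4 both rose, by 0.19 ± 0.05 and 0.40 ± 0.08 (adjusted p = 0.00643 and 1.75e-04), in an interval where the main probe set differed by -0.13 ± 0.22. The 2.77-fold rise of DUSP1 from week 4 thus rests on 1 probe set of 3. That probe set also had the highest standard deviation of the 3.

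GADD45B, a stress sensor that activates a kinase upstream of the stress-activated kinases, rose by 3 of its 4 probe sets. The main probe set (209305_s_at) had lowest, median and highest signals of 6.35, 7.05 and 8.29 at week -5, 6.53, 7.04 and 8.06 at week 4, and 6.84, 7.95 and 8.94 at week 12. Ranges of the weeks overlapped, and anti-miR-33 animals 3 and 6, at 6.86 and 6.84, were below every control animal of week 12. GADD45B rose by 0.88 ± 0.19 (SE), or 1.85-fold, from week 4 to week 12, in 10 of 12 animals (adjusted p = 7.20e-04, limma), and by 0.85 ± 0.19 from week -5, in 11 of 12 (adjusted p = 7.62e-04). By arm, the median change from week -5 to week 12 was 1.505 in control animals and 0.195 under anti-miR-33. The probe sets 209304_x_at and 207574_s_at rose by 0.62 ± 0.17 and 0.91 ± 0.23 from week 4 (adjusted p = 0.00661 and 0.00298). The fourth, 213560_at, stayed between 5.95 and 6.60 on every array and differed by 0.11 ± 0.05 (adjusted p = 0.0941), or by 0.14 without control animal 2 (adjusted p = 0.0472). With the 3′ minus 5′ covariate the main probe set rose by 0.86 from week 4 (adjusted p = 0.00108) and differed by 0.68 from week -5 (adjusted p = 0.141).

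The comparison of weeks -5 and 12 lies within a single run of array identifiers. IER3, GADD45B, JUNB and the main probe set of DUSP1 were higher and JUN was lower in that comparison too. The 3′ minus 5′ value changed most in the same comparison, by -0.74. With it as a covariate JUNB, JUN and the main probe set of GADD45B were not called, while IER3 and the main probe set of DUSP1 were. The part of the run of identifiers in the changes was not tested. Blood and cell type markers moved in the same weeks. HBB, the beta globin of red cells, fell by 1.59 ± 0.23 from week 4 to week 12 (adjusted p = 7.30e-06, limma), and of 6 tested blood markers 3 fell and 0 rose. Of 10 tested macrophage markers 1 rose and 1 fell, of 10 lymphocyte markers 2 rose and 0 fell, and of 18 hepatocyte markers 3 rose and 1 fell. Of 14 endothelial markers 1 rose and 4 fell, and of 9 stellate cell markers 0 rose and 3 fell, with a median of -0.21, where 12.3% of all tested probe sets rose and 13.2% fell. Their part in the rises of DUSP1, IER3 and GADD45B was not tested.

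The arms were compared to see whether anti-miR-33 altered the members. None of the 20 tested member probe sets passed at week -5, week 4 or week 12, or in the contrasts that compare the arms' changes over time (limma). Of all tested probe sets 0% passed at week -5 and at week 4, 0.00366% at week 12 (1 probe set, which was no member) and 0% in each of the differences in change. Member probe sets with an unadjusted p under 0.05 numbered 0, 0 and 2 at weeks -5, 4 and 12. They numbered 0 for the difference in change from week -5 to 4, 3 from week -5 to 12 and 2 from week 4 to 12.

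At week 12 most members were lower in the anti-miR-33 arm, without passing. The median difference of the 20 member probe sets was -0.29, with 1 above 0, while the median of all tested probe sets was 0.00. At week -5, before treatment, it was 0.14, with 18 above 0, and at week 4 it was 0.12, with 16 above 0. These medians rested on few animals. At week 12 the median was -0.10 without control animal 2, -0.18 without control animal 6 and -0.15 without anti-miR-33 animal 6. At week -5 it was 0.03 without anti-miR-33 animal 6 and 0.06 without control animal 6, and at week 4 it turned to -0.04 without anti-miR-33 animal 4. In the comparison at week 12, hepatocyte markers were above 0 in 18 of 18 (median 0.15) and macrophage markers in 2 of 10 (median -0.12), with 0 called in either list. The mean of the hepatocyte markers ran from 12.43 to 13.10 in control animals (SD 0.25) and from 13.01 to 13.17 under anti-miR-33 (SD 0.05). Its part in the members' differences was not tested. The week 12 array of control animal 5 had a highest signal of 13.80, against 14.99 to 15.02 in the other control animals. How far the hepatocyte difference between arms rests on a single array was not tested. Member probe sets share arrays and move together, so these counts are not independent. FOS at week 12 had a lowest, median and highest signal of 4.98, 6.27 and 8.88 in control animals and 4.21, 5.82 and 7.04 under anti-miR-33. The arms overlapped, and only control animals 2 and 6 were above all anti-miR-33 animals. The difference was -0.95 ± 0.60 (SE), with a 95% confidence interval of -2.17 to 0.26 and an adjusted p of 0.999 (limma), and without control animal 6 it was -0.52.

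DUSP1 at week 12 was 8.60, 9.30 and 9.91 (lowest, median, highest) in control animals and 7.21, 8.64 and 9.66 under anti-miR-33, which overlapped. It differed by -0.73 ± 0.33 (unadjusted p = 0.0349, adjusted p = 0.999, limma), and by -0.47 without anti-miR-33 animal 6. Its other probe sets differed by -0.07 and -0.04. JUN at week 12 was 7.07, 7.29 and 8.83 in control animals and 6.49, 7.27 and 7.44 under anti-miR-33, with nearly equal medians. It differed by -0.57 ± 0.27 (unadjusted p = 0.0405, adjusted p = 0.999, limma), and by -0.33 without control animal 2. JUNB, IER2 and IER3 differed by -0.01, -0.07 and -0.01 at week 12.

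**Figure D4:**
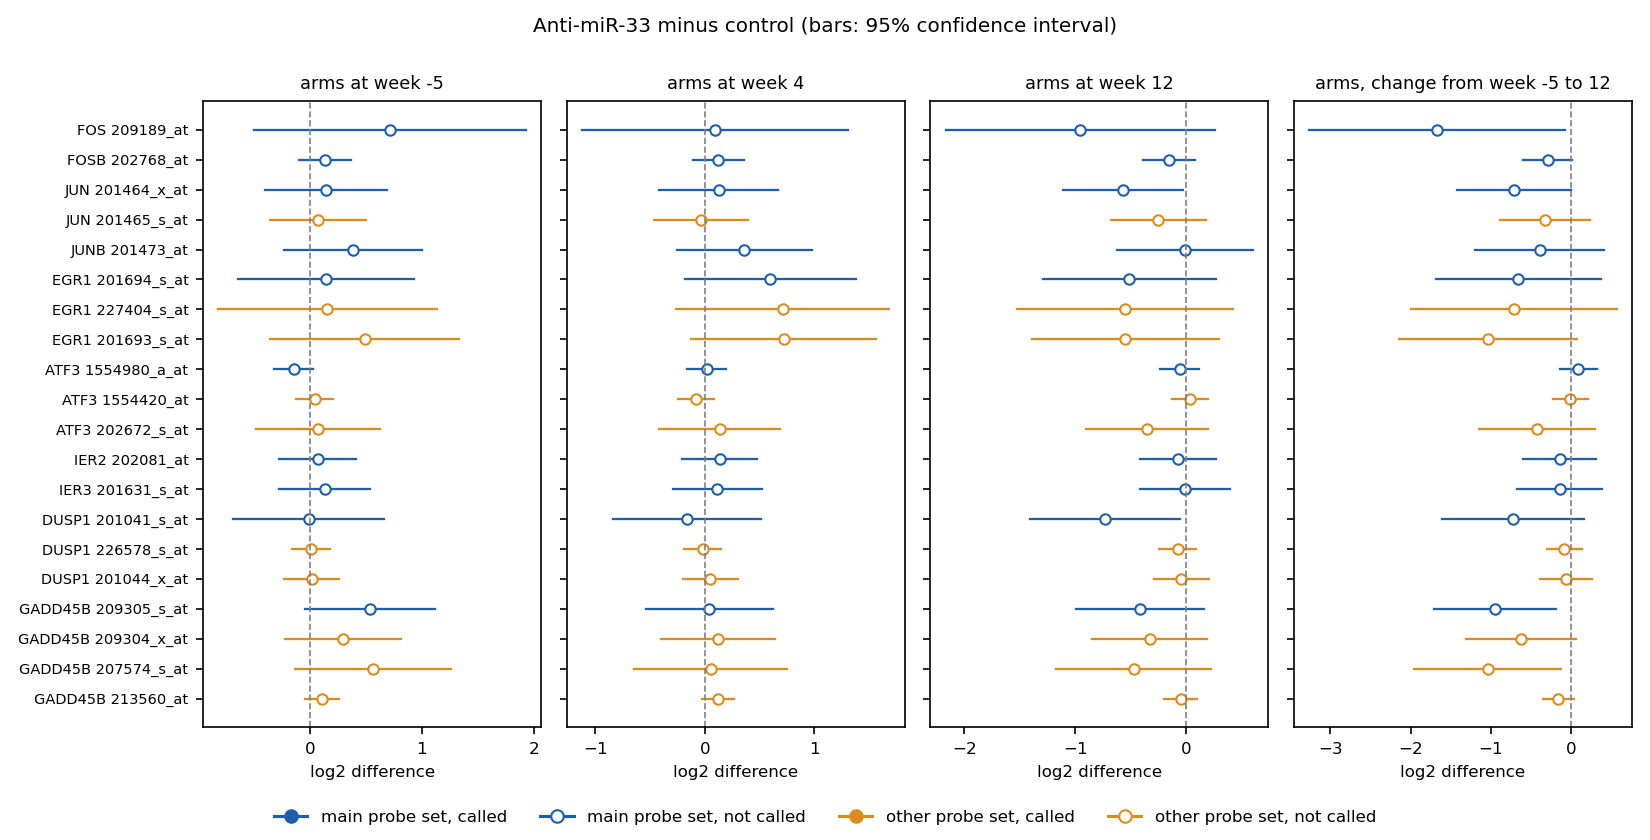
Log2 difference between arms, anti-miR-33 minus control (x axis, point, with its 95% confidence interval), for each tested member probe set (y axis) at weeks -5, 4 and 12 and for the change from week -5 to week 12. No point is filled, since none had an adjusted p under 0.05, and at week 12 all points but that of ATF3 1554420_at lie at or below 0.

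The change from week -5 to week 12 differed between arms by -1.67 ± 0.79 for FOS (unadjusted p = 0.041, adjusted p = 0.999, limma). Without control animal 6 this was -1.17, and without anti-miR-33 animal 4 it was -2.25. The main probe set of GADD45B differed in the same contrast by -0.95 ± 0.37 (unadjusted p = 0.0154, adjusted p = 0.999), its probe set 207574_s_at by -1.04 ± 0.45 and 213560_at by -0.16 ± 0.10. Baseline values enter this contrast, and before treatment GADD45B was higher by 0.54 ± 0.28 in the animals that later received anti-miR-33. For the change from week 4 to week 12, EGR1 differed between arms by -1.11 ± 0.51, and its other probe sets by -1.27 ± 0.63 and -1.27 ± 0.55 (unadjusted p = 0.0355, 0.0521 and 0.0262, adjusted p = 0.999 for each). The 3′ minus 5′ value differed between arms by 0.26, 0.03 and -0.04 at weeks -5, 4 and 12 (exact permutation p = 0.327, 0.913 and 0.665).

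After the mean of each arm and week was subtracted, the members still varied together. The Pearson r between main probe sets, over 36 arrays that share animals, weeks and RNA quality, was above 0 for 45 of 45 pairs, with a median of 0.37 and a range of 0.01 to 0.80. The r between pairs of other genes was not computed, so the count is not read as particular to the members. FOS and EGR1 had 0.80, DUSP1 and GADD45B 0.77, JUNB and IER2 0.67, and JUN and IER2 0.64. DUSP1 and EGR1 had only 0.08. FOS followed the mean of the other members most closely, at 0.82, and the main probe set of ATF3 least, at 0.37. That ATF3 probe set had a standard deviation of only 0.14. For ATF3 202672_s_at, with 0.52, the r with the other members was not computed. Within groups each main probe set had an r between -0.25 and 0.27 with the 3′ minus 5′ value.

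**Figure D5:**
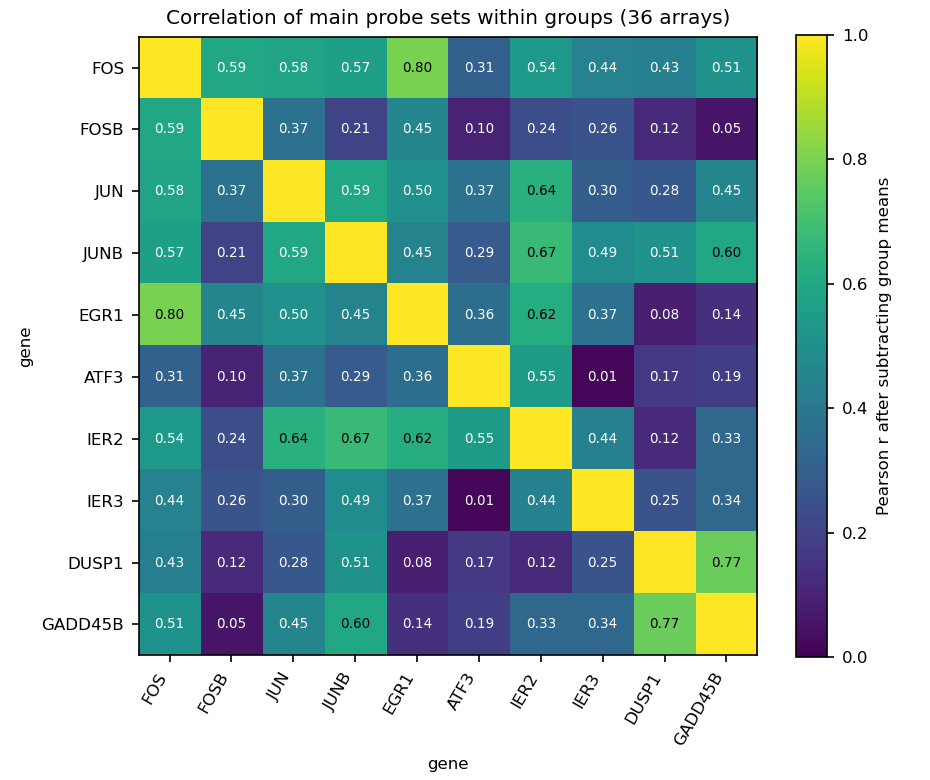
Pearson r (colour and printed value) between the main probe sets of the 10 genes on both axes, over 36 arrays after subtracting the mean of each arm and week. FOS with EGR1 (0.80) and DUSP1 with GADD45B (0.77) are the highest pairs, and ATF3 with IER3 (0.01) is the lowest.

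Probe sets of a gene agreed for EGR1 and in part for the others. Within groups, the EGR1 probe sets had an r of 0.88 to 0.98. For GADD45B, 3 probe sets had 0.90 to 0.94 with each other, and 213560_at had -0.01 to 0.14 with them. For JUN, 3 had 0.80 to 0.88, and 213281_at had 0.29 to 0.48 with these. DUSP1 had 0.23 to 0.58, and ATF3 -0.31 to 0.42. The GADD45B probe set 213560_at, the DUSP1 probe set 226578_s_at and both narrow ATF3 probe sets had a standard deviation below the median of all tested probe sets.

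Other genes with the pattern of the members were sought by r with the mean of the main probe sets over the 36 arrays, among 13622 genes with 1 probe set each. The highest were ETS2 (0.78), NFIL3 (0.74), NFKBIZ (0.73), PNRC1 (0.73), ZFP36 (0.71) and CPEB4 (0.71), followed by RHOB, KLF6, CSRNP1, IRS2, KDM3A and DDIT4, the last at 0.67. ZFP36, RHOB and KLF6 were on the list of further immediate early genes. With FOS alone, the highest were NFIL3 (0.64), NFKBIZ, CPEB4, PNRC1 and NR4A2 (0.58). These values describe shared variation over arrays only.

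Further early genes rose in some cases and fell in others. Of 40 further immediate early and primary response genes, 35 were tested. From week -5 to week 4, 4 rose and 6 fell, with a list median of -0.07. Between weeks -5 and 12, 6 rose and 5 fell, and from week 4 to week 12, 8 rose and 2 fell, with a median of 0.14. Of all tested probe sets 35.4%, 24.1% and 25.5% passed in these intervals, with 16.5%, 10.2% and 12.3% higher and 18.9%, 13.9% and 13.2% lower. No list was tested as a set, so neither these counts nor those of the lists that follow are read as particular to their genes. KLF2, a factor of endothelial cells, fell by 0.77 ± 0.12 from week -5 to week 4 and by 1.01 ± 0.12 to week 12 (adjusted p = 4.68e-06 and 7.90e-08, limma), while the endothelial marker CLEC4G fell by 0.97 and 1.35. NR4A3, an orphan nuclear receptor, fell by 0.48 ± 0.08 to week 4 and rose by 0.38 ± 0.08 from week 4 to week 12 (adjusted p = 1.71e-05 and 5.93e-04). ZFP36L1, which destabilises AU-rich messenger RNAs, rose by 0.38 ± 0.07 from week 4 to week 12 (adjusted p = 9.44e-05), and MCL1, a short-lived survival protein, by 0.67 ± 0.15 (adjusted p = 0.00133). In the differences between arms at week 12 and in the changes to week 12, 0 of the 35 passed.

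Kinases and factors upstream of the members were read from a list of their own. Of 19 tested, 1 rose and 3 fell from week -5 to week 4, 2 rose and 3 fell to week 12, and 3 rose and 2 fell from week 4 to week 12, beside the same 35.4%, 24.1% and 25.5% of all. MRTFA, a coactivator of serum response factor, fell by 0.51 ± 0.07 to week 4 (adjusted p = 3.26e-07, limma). RPS6KA3, a kinase downstream of ERK, rose by 0.63 ± 0.09 (adjusted p = 1.50e-06).

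Other stress programmes were read from further lists. Of 11 tested glucocorticoid response genes, 3 rose and 0 fell from week 4 to week 12, among them TAT, which degrades tyrosine, by 0.36 ± 0.09 (adjusted p = 0.00432, limma), with a list median of 0.25. Their mean had an r of 0.66 with the mean of the members within groups, against 0.32 for hypoxia response genes and 0.28 for heat shock genes. For the lists of cell and tissue markers the r ran from -0.20 (endothelial) to 0.26 (hepatocyte). The part of glucocorticoids in the members' values was not tested. Of 11 heat shock genes, 2 rose and 1 fell from week 4 to week 12, and of 14 hypoxia response genes 3 rose and 0 fell. HSPA1A, HSPA1B and HSPA8 had no probe set of their own, so the values of the heat shock list leave them out. Of 10 integrated stress response genes 0 rose and 1 fell, and of 9 cytokine and NF-kB response genes 2 rose and 0 fell. HSPD1, a mitochondrial chaperonin, rose by 0.39 ± 0.08 in that interval (adjusted p = 2.96e-04). Between weeks -5 and 4, by contrast, hypoxia response genes fell in 5 cases and rose in 1, and heat shock genes fell in 3 and rose in 1.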

How the data were processed

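Per the submitters' processing notes, the authors made the deposited log2 values with RMA, which corrects background, normalizes between arrays and summarises probe sets. No source used here gives its version or says whether all arrays were normalized together. The deposited table held 54675 probe sets with 2 decimals, from 2.41 to 15.07 on the log2 scale. The platform annotation gave 41097 probe sets 1 gene, 1801 several and 11777 none. The 62 control probe sets, and those with a mean at or below the median of all (4.46), were left out, which kept 27302.

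The linear model (limma 3.58.1 under R 4.3.3) held all 36 arrays, a mean for each of 6 groups, and a random block for the animal (correlation 0.14). Tests were moderated and two-sided, adjusted by Benjamini-Hochberg over all tested probe sets within a comparison, with a threshold of 0.05. Errors are standard errors from the fit unless called SD. The scripts were tested on simulated data. The pairing comes from the animal identifiers of the labels. Same-animal arrays had an r of 0.05 to 0.46 between deviations from group means in 36 pairs of weeks. In 28 of the 36 pairs, the later array of the same animal was the closest among the 6 of its arm at that week. The 3′ minus 5′ value was tested with exact permutations in scipy 1.17.1 (Python 3.11.15).

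All member probe sets were read out, and other genes are named where they were among the 3 of smallest p of a list, or the most alike in pattern. For other lists the probe set of highest mean stands for a gene, and 16 listed genes had none of their own. The members and lists were chosen with earlier results of these data known, and SGK1 and GADD45A are on more than 1 list. Alternatives were the animal as a fixed term, no block, no filter, 1 probe set a gene, median centring, array weights, a trended robust fit, the 3′ minus 5′ covariate, the omission of 2 doubted arrays, and each animal left out. Promoter and probe sequences were not analysed here. The number of arrays limits precision, and p-values cover the spread between these animals.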

Additional observations from a re-analysis of the deposited data

Results flagged for a closer look

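In 12 of 132 groups of 6 animals, 1 for each member probe set, arm and week, a single animal stood far from the other 5. The gap to the nearest animal, as a share of the group's range, was above Dixon's 95% critical value, which chance passes in about 1 in 20 groups. Member probe sets share arrays, so these cases are not independent.

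Anti-miR-33 animal 4 was the highest in 4 of them. Its share was 0.717 for FOS (6.73 against 4.89 to 5.41), 0.703 for the ATF3 probe set 202672_s_at and 0.688 for the GADD45B probe set 209304_x_at (8.08 against 6.48 to 6.98) at week 4, and 0.635 for IER2 at week 12. Before treatment, the animal that became anti-miR-33 animal 1 was highest for DUSP1, with a share of 0.694 for 201041_s_at (9.41 against 6.70 to 7.53) and 0.756 for 201044_x_at. Animal 6 of that arm was highest for IER2 at week -5, with 0.726 (7.85 against 6.83 to 7.11).

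Anti-miR-33 animal 2 was the lowest for EGR1 at week 12, with 0.784 for 201694_s_at (7.75 against 9.42 to 9.88) and 0.694 for 227404_s_at. Among control animals, animal 3 was highest for FOSB at week 4, with 0.763 (5.50 against 4.74 to 4.92), and for the ATF3 probe set 1554420_at at week 12, with 0.750. Control animal 2 was highest for the ATF3 probe set 202672_s_at at week 12, with 0.678 (6.87 against 4.32 to 5.14).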

How the results depend on the processing

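Of 688 values of 32 single member results under 22 alternatives, 648 kept their direction and their side of the threshold, 33 lost a call, 7 gained one and 0 turned sign. Of 148 member differences with an unadjusted p of 0.05 or above, 53 turned sign under at least 1 alternative. With 1 probe set a gene, the member calls averaged over both arms numbered 2 (0 higher, 2 lower) from week -5 to 4 and 5 (4 higher, 1 lower) from week -5 to 12, where fewer member probe sets were tested. With the 3′ minus 5′ covariate they numbered 2 and 3, and the cause was not tested. Leaving out 1 animal gave 4 to 5, 8 to 9 and 5 to 7 calls in the 3 intervals, and 0 in every comparison of arms.

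The animal as a fixed replicate block gave 5, 9 and 7 calls over time and 0 in the differences in change, and it could not be fitted for arms at a single week. No replicate block gave 5, 9 and 5. In control animals, 1 probe set a gene gave 0, 3 and 3 calls, omission of the week 12 array of animal 5 gave 3 from week 4 to 12, and leaving out 1 animal gave 0 to 2, 4 to 6 and 2 to 5. In anti-miR-33 animals from week -5 to 4, no block and no filter gave 1 call each, and 1 probe set a gene and the covariate 0. From week -5 to 12, array weights gave 6 and the covariate 0. Leaving out 1 animal gave 0 to 2, 2 to 4 and 1 to 2. Of 111 results of listed genes 1 turned sign: HSPE1 differed from week -5 to 12 by 0.29 and, with the covariate, by -0.13.

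A human array measures monkey transcripts here, so a probe set with low signal limits what can be seen of its gene. Groups of 6 animals with a wide spread leave differences between arms of FOS or EGR1 within broad intervals.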
